A study of Ovis aries with 40 samples.

Results

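The kinesin genes of the sheep lung were taken as all gene identifiers of the count tables that read KIF or KIFC followed by digits and at most 1 letter, which gave 40 genes of 24478. Of these, 8 were set apart by name as mitotic kinesins (*KIF2C*, *KIF4A*, *KIF11*, *KIF14*, *KIF18B*, *KIF20A*, *KIF23* and *KIFC1*) and compared with the other 32, of which 7 have other roles in division, 9 carry cargo, 5 serve the building of cilia, 4 belong to motile cilia and 7 fall in none of these groups. All 40 passed the filter on low counts in every fit, so none was lost from a count of calls. *KIF12* and *KIF26B* are not among the identifiers of these tables and were not analysed here.

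Kinesins are motor proteins that use ATP to move along microtubules or to take them apart at their ends. One set of them builds the mitotic spindle, moves chromosomes and closes the midbody, and its genes are transcribed mainly in dividing cells, peaking late in the cell cycle. The transport set carries vesicles, mitochondria and protein complexes in cells that need not divide, and kinesin-2 motors carry cargo along the axoneme of cilia, which cover much of the airway epithelium. In the fetal lung, branching and growth of the airways are periods of division, and the saccular and alveolar stages near birth are marked by differentiation.

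Bulk RNA was sequenced from proximal and distal lung of American Romney sheep on gestational days 65, 80, 100 and 120 and at term, labelled 147 days. There were 2 libraries for each of 20 conditions and 40 in all. Wild-type (WT) animals were bred naturally, and those at term were born before collection. The CF animals carried a targeted *CFTR* exon 2 and were made by somatic cell nuclear transfer from a male fibroblast line, CF 60. All CF animals thus derive from 1 line, while the sex of the WT animals is not given in the sources used here. Both regions of a replicate came from the same animal. The labels give 1 animal for both WT replicates at 100 days, whose libraries therefore need not be independent. A further animal label is shared by the second WT replicate of day 65 and the second CF replicate of day 100. *CFTR*, encoding the chloride channel, was lower in each CF library than in both WT libraries of the same region and day in 10 of 10 comparisons, with log2 fold changes of -1.43 to -0.44 (17.0% to 32.7% of all genes were lower in this way). It was called lower at term, in proximal (mean of 4.52 against 12.2 CPM, counts scaled to library size, adjusted p = 0.0282) and in distal lung (4.25 against 11.7 CPM, adjusted p = 0.00329). The labels name the tissue as epithelial. However, the mesenchymal genes *COL1A1* (498 to 8191 CPM) and *VIM* (986 to 2413 CPM) stood beside the epithelial genes *EPCAM* (90.3 to 287 CPM) and *NKX2-1* (60.9 to 209 CPM) in every library, and the tissue is treated here as whole lung. In such bulk samples, fewer cells of a type and less RNA per cell cannot be told apart.

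Before term the 16 WT libraries held 24670355 to 43700012 counted reads and the 16 CF libraries 85773994 to 103139483, so that genotype and depth cannot be told apart there. At term the 4 WT libraries held 115937437 to 126749480 reads and the 4 CF libraries 117316905 to 119451372. Replicate 2 of CF proximal lung at 120 days differed from its replicate more than in any other pair (chi-square per gene 1852 for the pair, against 6.98 to 648 in the other 19 pairs). Replicate 2 lay more than 4-fold below replicate 1 in 10.4% of the genes at a mean of 1 CPM or more, against 0.00678% to 2.95% in the other pairs. Its median log2 ratio to replicate 1 in the quartile of longest transcripts minus that in the quartile of shortest ones was -1.84, against -1.05 to 0.75 in the other pairs. More than 4-fold lower in it were 5 of the 36 kinesins compared, *KIF1A* (0.163 against 11.7 CPM), *KIF3B* (0.952 against 24.1 CPM), *KIF13B* (0.813 against 20.2 CPM), *KIF3C* and *KIF21B*. The part of transcript length in the kinesin results was not tested. Among the mitotic kinesins of the same pair, *KIF11* was at 17.9 against 37.0 CPM and *KIFC1* at 34.8 against 21.4 CPM.

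First, the mitotic kinesins were followed through gestation. Their summed level went from 407 to 449 CPM in the 4 WT libraries at 65 days to 369 to 388 at 80 days, 229 to 245 at 100 days and 97.1 to 125 at 120 days. WT term libraries lay between 74.0 and 161 CPM, and so overlapped the 120 day range. The CF libraries held 419 to 444 CPM at 65 days, 316 to 435 at 80 days, 302 to 309 at 100 days and 122 to 169 at 120 days. At term they stood at 12.1 to 20.7 CPM. Of all reads on kinesin genes, the 8 mitotic genes took 26.4% to 32.2% at 65 days in either genotype, 6.35% to 9.81% in WT and 1.38% to 2.40% in CF at term. The summed level of the other 32 genes was 783 to 1274 CPM before term in either genotype. At term it was 1091 to 1498 CPM in WT and 785 to 862 CPM in CF, without overlap (16.1% of single genes were lower in CF in this way). Of that term sum, *KIF1C* alone made up 424 to 624 CPM in WT and 86.9 to 276 CPM in CF. Markers of other cell types moved over the same days. In WT lung from 65 to 120 days, summed cartilage markers went from 354 to 499 CPM down to 12.7 to 28.8 CPM, and neuron markers from 226 to 284 CPM down to 33.8 to 44.5 CPM. Endothelial markers went from 697 to 838 CPM up to 1393 to 1743 CPM, and epithelial markers from 869 to 1083 CPM up to 2941 to 4973 CPM. The epithelial sum includes *SFTPC*, at 184 to 14901 CPM over all WT libraries, term included, while *EPCAM* lay at 170 to 258 CPM in them. The part of these cell type markers in the course of the kinesins was not tested.

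Taken gene by gene, the 8 mitotic kinesins shared this course. *KIF11*, the motor that slides antiparallel spindle microtubules and separates the poles, had a median of 95.0 CPM over the 8 libraries at 65 days (81.8 to 111), 94.4 at 80 days (62.6 to 100), 59.9 at 100 days (52.7 to 70.2) and 26.1 at 120 days (17.9 to 37.0). *KIFC1*, a minus-end directed motor that bundles spindle poles, went from 57.1 CPM at 65 days (45.0 to 73.5) through 35.2 at 100 days (28.7 to 56.5) to 19.5 at 120 days (11.1 to 34.8). For both genes the ranges at 65 and 120 days did not overlap (5.01% of all genes were lower at 120 days in this way). *KIF2C*, which takes microtubules apart at kinetochores, had medians of 31.7, 17.2 and 7.31 CPM at 65, 100 and 120 days. *KIF18B*, which trims the astral microtubules, had 28.1, 22.2 and 8.70 CPM. At 120 days its 4 CF libraries (9.71 to 20.9 CPM) lay above its 4 WT libraries (6.72 to 7.69 CPM), as was so for *KIFC1* and for 10.4% of all genes. On the Oar_v4.0 assembly *KIF2C* lies on chromosome 1 (19182315 to 19200422, plus strand), *KIF18B* on chromosome 11 (43997941 to 44024304, minus strand) and *KIFC1* on chromosome 20 (7641898 to 7656392, plus strand), and the counts cover their exons.

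The motors of the chromosome arms and of cell separation came next. *KIF4A*, a chromosome-bound motor encoded on chromosome X, had a median of 38.5 CPM at 65 days (32.4 to 41.1) and 10.1 CPM at 120 days (8.29 to 14.0). *KIF20A*, which brings the chromosomal passenger complex to the central spindle, went from 86.8 CPM (78.7 to 98.9) to 20.4 CPM (15.2 to 28.3). *KIF23*, the motor subunit of centralspindlin, went from 60.2 CPM (54.8 to 65.1) to 18.1 CPM (14.2 to 27.5). *KIF14*, which acts at the midbody, went from 31.8 CPM (25.7 to 41.7) to 9.72 CPM (6.76 to 15.2). All 8 genes therefore had lower levels in every library at 120 days than in any library at 65 days, as had 5.01% of all genes and, among the other kinesins, *KIF15*, *KIF18A* and *KIF22*. Exons of *KIF20A* overlap *CDC23* and those of *KIF23* overlap *LOC105611449*, and as the strand setting of the counting is not stated, reads in the overlaps cannot be told apart. Per kilobase of transcript (RPKM), *KIF20A* led the 8 in WT lung at 65 days with 30.0, ahead of *KIF11* with 22.1, *KIFC1* with 16.9 and *KIF23* with 12.1. *KIF14* was lowest with 3.86.

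**Figure D1:**
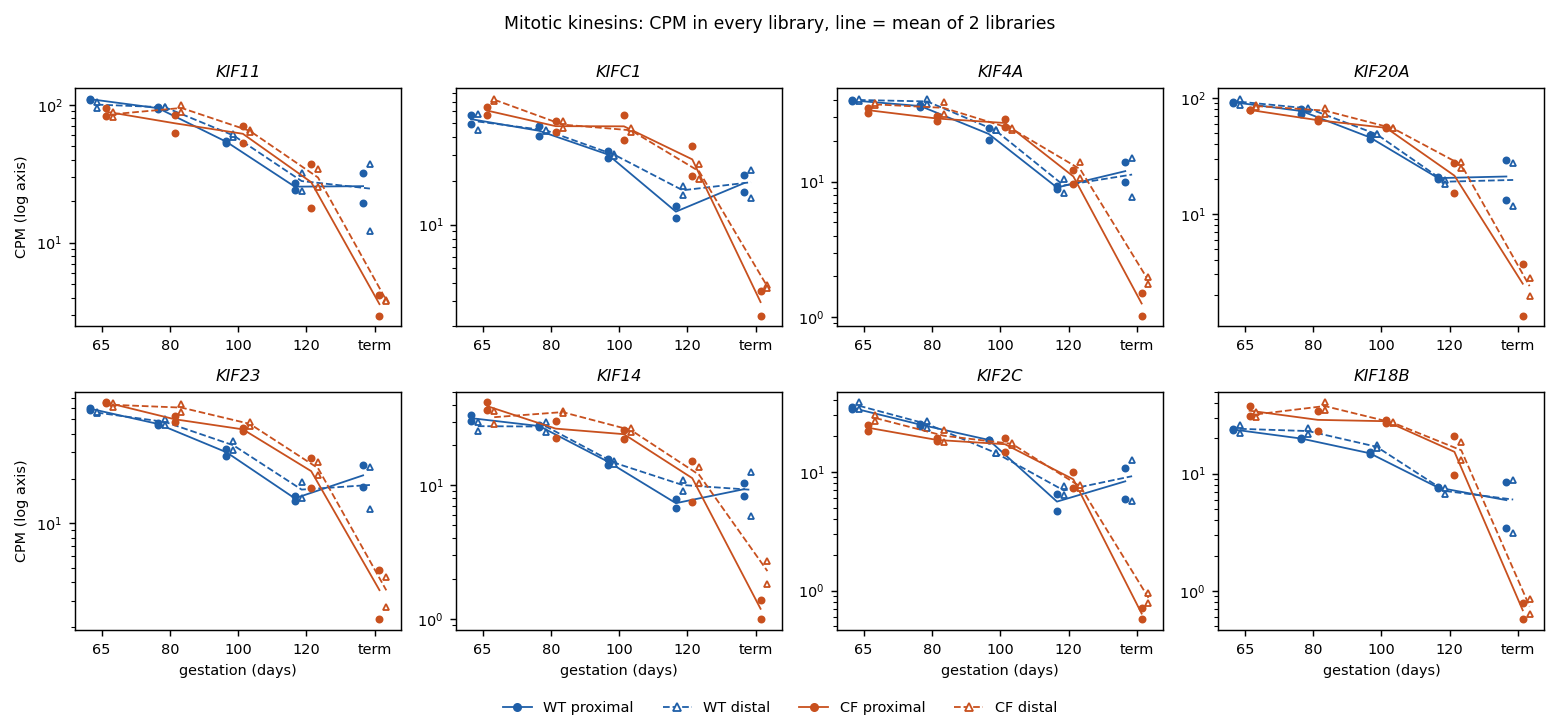
Levels of the 8 mitotic kinesins in CPM (log axis) against gestation in days, with 1 point per library, filled circles for proximal and open triangles for distal lung, blue for WT and orange for CF, and lines through the mean of 2 libraries. Levels at 120 days lie below those at 65 days in both genotypes, and all 4 CF libraries at term lie below all 4 WT libraries in each panel.

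Tests over the 5 time points called all 8 mitotic kinesins in each of the 4 time courses (edgeR quasi-likelihood test, adjusted p of 0.05 or less). In WT proximal lung 12 of the other 32 kinesins were also called, where 40.8% of all genes were. In WT distal lung 9 of the 32 were called (40.4% of all genes), in CF proximal lung 3 (5.36%) and in CF distal lung 14 (33.9%). At the limit used in the study, an adjusted p of 0.001 or less, the kinesins called were 12, 3, 0 and 10 in the same order, against 10.6%, 7.48%, 0.0254% and 3.59% of all genes. The CF proximal count rested on single libraries, since it was 4 without CF replicate 2 at term (1.39% of all genes) and 20 without CF replicate 1 at 120 days (20.5%).

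Of the consecutive intervals, the median of the 8 fell most in WT lung from 100 to 120 days. Both WT replicates at 100 days carry 1 animal label, so WT tests against that day may understate the spread between animals. In WT proximal lung the mitotic kinesins fell by a median of 1.11 on the log2 scale, and 6 of 8 were called lower (2.67% of all genes were called in either direction, 1.29% lower). *KIFC1* fell by 1.29 (SE 0.18, adjusted p = 0.00970), from 28.7 and 32.1 CPM at 100 days to 13.5 and 11.1 at 120 days. *KIF4A* fell by 1.30 (SE 0.18, adjusted p = 0.00970), from 24.8 and 20.2 to 9.28 and 8.84 CPM. *KIF2C* had the largest fall of the 8, by 1.71 (SE 0.28, adjusted p = 0.0168), from 18.4 and 18.6 to 6.55 and 4.67 CPM. These 6 calls depended on having both libraries on each side, since 1, 1, 1 and 0 mitotic kinesins were called when each of the 4 libraries compared was left out in turn, where 0.392% to 0.943% of all genes were.

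The medians for the same interval were alike elsewhere, but fewer genes passed the edgeR test. DESeq2 made 6 mitotic calls in WT distal and 7 in CF distal lung, where it called 8.09% and 5.48% of all genes. WT distal lung had a median of -1.08 with 1 call, *KIF4A* (log2 fold change -1.35, SE 0.27, adjusted p = 0.0369), where 2.49% of all genes were called, and that call was lost without any 1 of the 4 libraries compared. CF proximal lung had a median of -1.02 with 0 calls by edgeR, which called 0.0203% of all genes. There 6 of the 8 had an unadjusted p under 0.05, and DESeq2 made 1 call beside 2.42% of all genes. In CF distal lung the 8 fell by a median of 1.00 with 1 call, *KIF11* (-1.09, SE 0.20, adjusted p = 0.0432, 0.928% of all genes), which was lost without any 1 of 3 of the 4 libraries compared. In each of the 4 time courses all 8 mitotic kinesins had a lower mean at 120 than at 100 days. The change from 100 to 120 days did not differ between genotypes past the threshold for any kinesin in either region, with medians of the 8 differences of 0.05 and 0.02 and 0% of all genes called by edgeR (1 and 0 kinesins at an unadjusted p under 0.05). Earlier intervals were smaller. From 65 to 80 days 0 kinesins were called in any time course, where 0.0110% (WT proximal), 0.0164% (WT distal), 0% and 0% of all genes were by edgeR (0, 0, 0 and 2 kinesins at an unadjusted p under 0.05). From 80 to 100 days *KIF14* alone was called, in WT proximal lung (-0.90, SE 0.17, adjusted p = 0.0366, 1.94% of all genes). In the same interval 0 kinesins were called by edgeR in WT distal (1.00% of all genes), CF proximal (0%) and CF distal lung (0%), and 8, 4 and 4 had an unadjusted p under 0.05.

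From 120 days to term the genotypes parted. In WT proximal lung the mitotic kinesins had a median change of 0.37, and 2 were called higher, *KIFC1* (0.65, SE 0.18, adjusted p = 0.0286) and *KIF23* (0.51, SE 0.16, adjusted p = 0.0465), where 24.6% of all genes were called. In WT distal lung the median was 0.05 with 0 calls by edgeR (25.8% of all genes), 0 at an unadjusted p under 0.05 and 0 by DESeq2 (32.1% of all genes). The WT term animals differed from each other, with replicate 1 above replicate 2 for all 8 genes in both regions, for example 32.0 and 19.4 CPM of *KIF11* in proximal and 37.2 and 12.1 CPM in distal lung. Without replicate 1, *KIF20A* was called lower in both regions instead (-0.63 proximal, adjusted p = 0.0148; -0.69 distal, adjusted p = 0.00507). Without 1 library the mitotic calls ran from 0 to 4 in each region, with 4 in distal lung without replicate 1 at term (35.7% of all genes) and 3 without replicate 2 (16.7%), and the median from 0.11 to 0.56 in proximal and from -0.57 to 0.42 in distal lung. The direction in WT distal lung after 120 days was thus set by the animal kept.

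In CF lung the medians of the 8 changed more in this interval than in any earlier one. In CF distal lung all 8 fell, by a median of 2.85 on the log2 scale (range 2.40 to 4.43), where 23.0% of all genes were called, and all 8 calls were kept when any of the 4 libraries was left out. In CF proximal lung the median was -3.21 (range -4.51 to -2.69) and 7 of 8 were called lower, where 0.356% of all genes were called. *KIF20A*, at 27.5 and 15.2 CPM at 120 days and 3.67 and 1.32 CPM at term, missed the threshold there (-3.13, SE 0.50, adjusted p = 0.0528). The 7 proximal calls went to 0 without CF replicate 2 at term, where 0.00493% of all genes were called, while the median stayed between -3.58 and -2.82 over the 4 libraries left out.

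**Figure D2:**
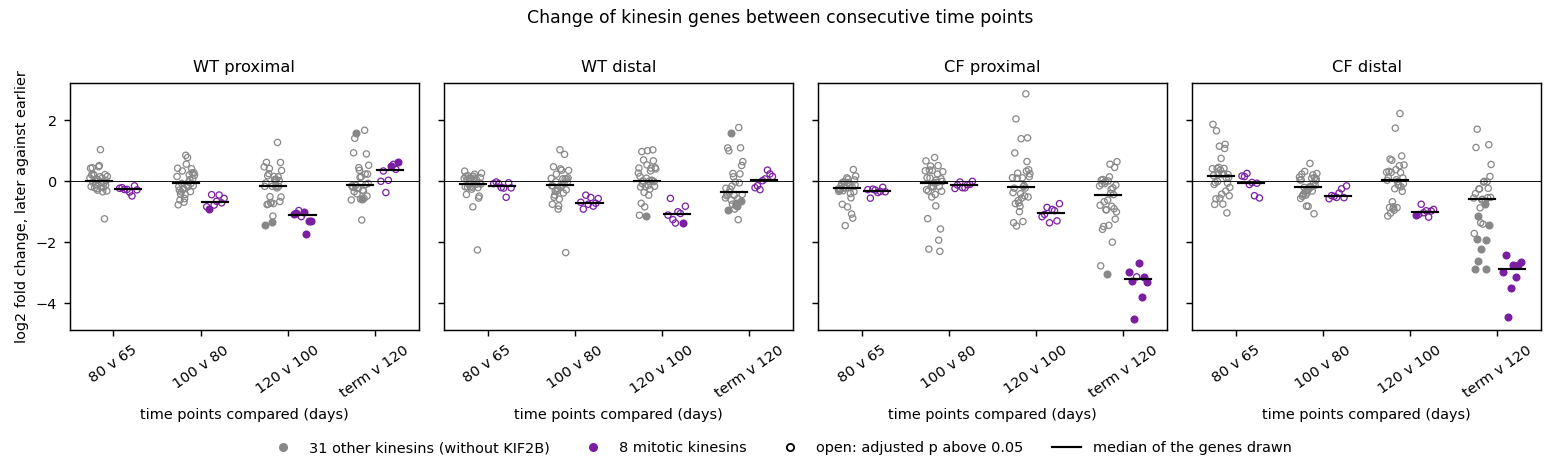
Log2 fold change of each kinesin between consecutive time points in the 4 time courses, positive where the later time point is higher, purple for the 8 mitotic and grey for 31 other kinesins (*KIF2B*, at 0 reads in both libraries of 2 CF conditions, is not drawn), filled where the adjusted p is 0.05 or less, with bars at the median of the genes drawn. The mitotic genes lie below 0 at 120 against 100 days in all 4 panels, and at term against 120 days their medians are -3.21 and -2.85 in CF and 0.37 and 0.05 in WT lung.

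Next, CF was compared with WT directly at term, where depth was alike. All CF animals were made by nuclear transfer and all WT animals were bred naturally, so genotype and cloning cannot be told apart. The same holds for sex and for birth before collection, where these differed between the groups. *KIF11* was at 32.0 and 19.4 CPM in WT proximal and 4.20 and 2.96 CPM in CF proximal lung, and at 37.2 and 12.1 CPM in WT distal and 3.85 and 3.79 CPM in CF distal lung. *KIF20A* was at 29.0 and 13.1 against 3.67 and 1.32 CPM in proximal, and at 27.5 and 11.7 against 2.78 and 1.97 CPM in distal lung. *KIFC1* was at 21.9 and 16.7 against 3.50 and 2.37 CPM in proximal, and at 23.9 and 15.3 against 3.83 and 3.68 CPM in distal lung. For each of these motors the lowest WT library stood well above the highest CF library. *KIF23* was at 24.5 and 17.5 against 4.84 and 2.26 CPM in proximal, and at 23.8 and 12.4 against 4.37 and 2.72 CPM in distal lung. *KIF4A* was at 14.0 and 9.97 against 1.49 and 1.03 CPM in proximal, and at 14.8 and 7.74 against 1.75 and 1.97 CPM in distal lung. *KIF14* was at 10.3 and 8.37 against 1.39 and 0.993 CPM in proximal, and at 12.6 and 5.89 against 2.73 and 1.83 CPM in distal lung. The motors with the fewest reads in CF lung, *KIF2C* and *KIF18B*, still had 52 or more in every library. *KIF2C* was at 10.8 and 5.85 against 0.708 and 0.574 CPM in proximal, and at 12.6 and 5.71 against 0.780 and 0.959 CPM in distal lung. *KIF18B* was at 8.46 and 3.42 against 0.796 and 0.574 CPM in proximal, and at 8.88 and 3.14 against 0.633 and 0.847 CPM in distal lung. In all 8 the 4 CF libraries thus lay below the 4 WT libraries, where 16.1% of all genes did.

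All 8 mitotic kinesins were called lower in CF in both regions. In proximal lung, where 6.09% of all genes were called and 3.49% called lower, the median log2 fold change was -3.02. Values ran from -3.69 (*KIF2C*, SE 0.33, adjusted p = 9.73e-05) to -2.56 (*KIF23*, SE 0.32, adjusted p = 0.000617). In distal lung, where 15.2% were called and 7.57% called lower, the median was -2.61. Values ran from -3.36 (*KIF2C*, SE 0.31, adjusted p = 4.29e-05) to -1.99 (*KIF14*, SE 0.31, adjusted p = 0.000938). As a ratio of mean CPM, WT exceeded CF by 5.92 to 13.0 times in proximal and 4.06 to 10.5 times in distal lung. At the limits of the study, which add to that adjusted p of 0.001 a change of at least 0.58 on the log2 scale, 6 of 8 were called in proximal and 8 of 8 in distal lung, beside 0.339% and 1.25% of all genes. *KIF18B* and *KIF20A* missed them in proximal lung, with adjusted p of 0.00135 and 0.00149. All 8 calls in each region were kept when any of the 4 term libraries was left out, and the median then ran from -3.32 to -2.47 in proximal and from -3.14 to -2.04 in distal lung. The change from 120 days to term itself differed between the genotypes for all 8 in both regions (median difference -3.55 in proximal and -2.89 in distal lung, with 1.78% and 9.31% of all genes called). In proximal lung that call of *KIF20A* was lost without any 1 of 3 of the 4 WT libraries and that of *KIF11* without WT replicate 2 at 120 days. In distal lung all 8 were kept. These tests share the CF and WT term libraries with the comparisons above.

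Before term 0 mitotic kinesins were called by edgeR between the genotypes on any day in either region, and at an unadjusted p under 0.05 there were 0, 0, 3 and 2 in proximal and 1, 0, 2 and 2 in distal lung at 65, 80, 100 and 120 days. The median log2 fold change of CF against WT in proximal lung was -0.04, -0.17, 0.39 and 0.61 on these days. Distal lung had 0.03, 0.05, 0.35 and 0.43. At 120 days all 8 had higher means in CF than in WT in both regions, with none past the threshold. A single mitotic call arose in each region at 120 days when 1 library was left out, *KIFC1* in proximal lung without CF replicate 1 (30.2% of all genes called) and *KIF18B* in distal lung without CF replicate 2 (9.09%).

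Genes of other cells also differed at term. The summed level of 6 leukocyte markers (*PTPRC*, *CD68*, *MARCO*, *CD14*, *CSF1R* and *LYZ*) was 379 to 823 CPM in the 4 WT and 87.8 to 183 CPM in the 4 CF term libraries. Before term it was 44.7 to 96.5 CPM in all libraries. Of the 6 markers, 4 in proximal and 2 in distal lung were called lower in CF at term, beside 3.49% and 7.57% of all genes. *MARCO*, a receptor of alveolar macrophages, made up 199 to 495 CPM of the WT sum and 6.73 to 13.5 CPM of the CF sum. Without *MARCO* the sum was 179.8 to 517 CPM in WT and 80.6 to 171 CPM in CF. Within the WT term pairs the leukocyte sum was 480 and 823 CPM in proximal and 379 and 804 CPM in distal lung, in replicates 1 and 2. Summed erythroid markers were 29.3 to 47.3 CPM in WT and 34.9 to 47.0 CPM in CF at term, and 97.7 to 175 CPM in WT and 70.7 to 92.7 CPM in CF at 120 days. Of the 11 erythroid markers, 1 in proximal and 2 in distal lung were called higher in CF at term, beside 2.60% and 7.65% of all genes. The change of these markers from 120 days to term was higher in CF than in WT for 9 of 11 in both regions (median difference 1.21 in proximal and 3.27 in distal lung), and 1 and 4 of 11 were called, beside 1.78% and 9.31% of all genes. In that same change, 1 of 8 mesenchymal markers in proximal and 3 of 8 in distal lung were called (2 higher and 1 lower in distal), and 0 and 3 of 10 epithelial markers (1 higher and 2 lower). The mesenchymal sum was 10990 to 14711 CPM at 120 days and 5631 to 8500 CPM at term in WT. In CF it was 11576.5 to 15964 CPM and 5486 to 11217 CPM. The epithelial sum was 2941 to 4973 CPM and 13476 to 22289 CPM in WT, and 4549 to 19112 CPM and 6587 to 27885 CPM in CF. The part of these cell type markers in the kinesin difference was not tested.

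**Figure D3:**
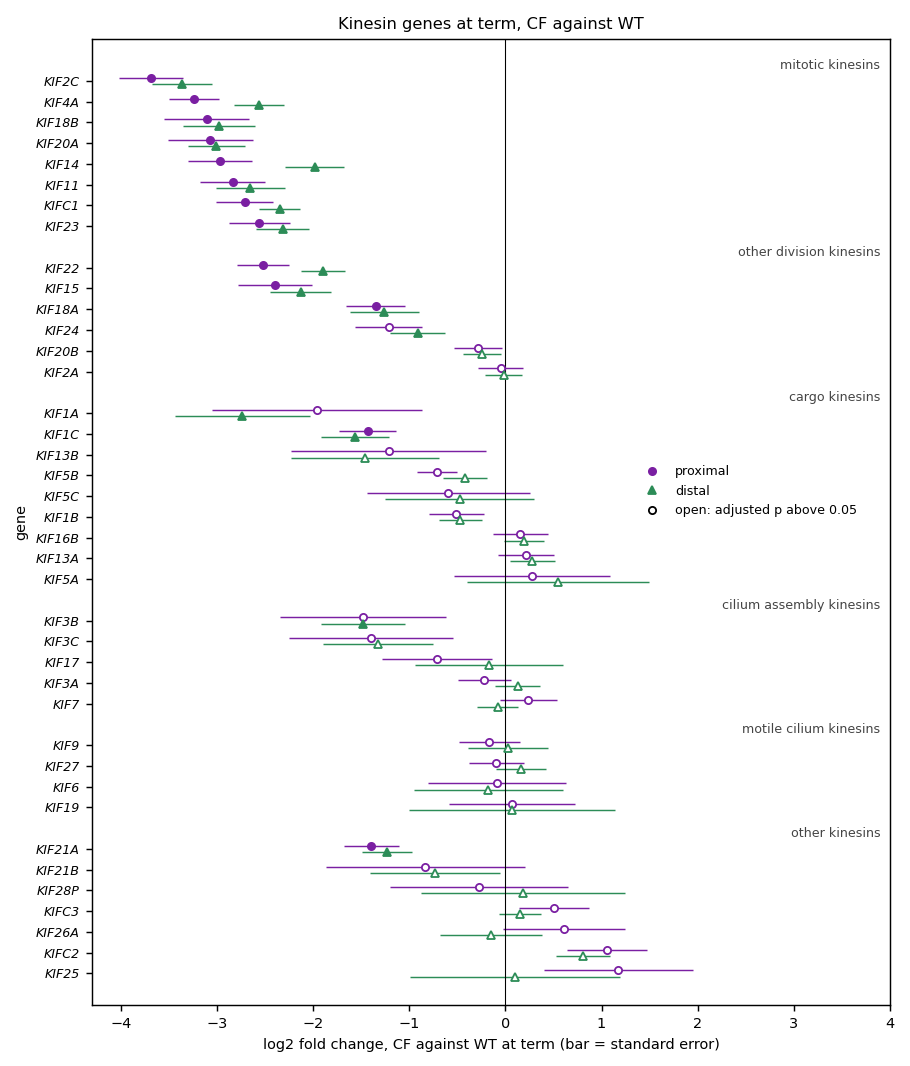
Log2 fold change of CF against WT at term for 39 kinesins by role (*KIF2B*, at 0 reads in both CF distal libraries, is not drawn), with purple circles for proximal and green triangles for distal lung, bars of 1 standard error, and filled symbols where the adjusted p is 0.05 or less. The 8 mitotic kinesins lie between -3.69 and -1.99 with all symbols filled, and the motile cilium kinesins lie near 0 with none filled.

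Of the 32 other kinesins, 5 in proximal and 8 in distal lung were called lower in CF at term, and 0 higher, where 3.49% and 7.57% of all genes were called lower and 2.60% and 7.65% higher. Their median log2 fold changes were -0.40 and -0.21, beside -0.03 and 0.00 over all genes. *KIF22*, a chromosome arm motor, was at 15.2 and 13.4 against 2.77 and 2.21 CPM in proximal and at 16.2 and 10.4 against 3.30 and 3.67 CPM in distal lung (-2.52, SE 0.27, adjusted p = 0.000229; -1.90, SE 0.23, adjusted p = 0.000192). *KIF15*, which assists *KIF11* in holding the poles apart, was at 10.9 and 5.71 against 1.87 and 1.27 CPM in proximal lung (-2.40, SE 0.38, adjusted p = 0.00313) and lower by 2.13 in distal lung (SE 0.32, adjusted p = 0.000808). *KIF18A*, which aligns chromosomes, was at 4.47 and 3.54 against 1.73 and 1.41 CPM in proximal lung (-1.35, SE 0.31, adjusted p = 0.0196) and was also called in distal lung (-1.26, adjusted p = 0.0285). These 3 division motors were called in the same direction as the 8, and the *KIF18A* call was lost without 1 term library in 3 of 4 cases in proximal and 2 of 4 in distal lung. *KIF24*, linked to centrioles and the disassembly of cilia, was called in distal lung only (-0.91, SE 0.28, adjusted p = 0.0421), with -1.21 in proximal lung short of the threshold, and that call was lost without 1 term library in 3 of 4 cases.

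Among the members outside division, *KIF1C* and *KIF21A* were called in both regions. *KIF1C*, a carrier of secretory vesicles and mRNA, was at 546 and 424 CPM in WT proximal against 224 and 135 in CF proximal lung (-1.44, SE 0.29, adjusted p = 0.0118), and at 624 and 474 against 276 and 86.9 CPM in distal lung (-1.57, SE 0.36, adjusted p = 0.00974). *KIF21A*, which restrains microtubule growth at the cell cortex, was at 12.8 and 13.4 against 3.55 and 6.39 CPM in proximal (-1.40, SE 0.29, adjusted p = 0.0125) and 13.8 and 9.29 against 3.75 and 5.86 CPM in distal lung (-1.23, SE 0.26, adjusted p = 0.00619). In neither gene did the genotypes overlap at term (16.1% of all genes were lower in every CF than in every WT term library). In distal lung alone, *KIF1A*, a carrier of synaptic vesicle precursors, was at 13.2 and 6.57 against 1.29 and 1.61 CPM (-2.74, SE 0.70, adjusted p = 0.0180), and *KIF3B*, a kinesin-2 subunit, at 18.5 and 11.0 against 4.27 and 6.05 CPM (-1.48, SE 0.43, adjusted p = 0.0330). Both were near 0 in the CF library that stood apart at 120 days. The 12 neuron markers in the table summed to 17.7 to 64.9 CPM in WT and 13.8 to 41.4 CPM in CF at term. Leaving out 1 term library removed the call of *KIF1A* or *KIF3B* in 3 of 4 cases each. It removed that of *KIF1C* in 2 of 4 in proximal and 1 of 4 in distal lung, and of *KIF21A* in 2 of 4 and 1 of 4. Per kilobase, *KIF21A* went from 4.43 RPKM at 65 days to 1.94 at term in WT and from 3.04 to 0.769 in CF. Its relative *KIF21B* went from 2.43 to 0.716 RPKM in WT and from 2.50 to 0.409 in CF, and was called in WT proximal lung over the 5 time points (adjusted p = 0.0151) and in no other comparison. The change from 120 days to term differed between the genotypes for *KIF15* and *KIF22* in both regions and for *KIF1C* in distal lung, and of these the *KIF15* call in proximal lung and the *KIF1C* call were each lost without any 1 of 4 of the 8 libraries compared.

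Some mitotic kinesins have a close relative outside the 8, which allowed them to be set side by side per kilobase (RPKM, mean of the 4 libraries of a genotype and day). Of these relatives, *KIF2A*, *KIF18A* and *KIF20B* were grouped here with the other division kinesins. *KIF2A*, a microtubule depolymerase that also works in cells that do not divide, was at 12.4, 11.3, 10.3 and 10.5 RPKM in WT at 65, 80, 100 and 120 days, while *KIF2C* went from 6.49 to 1.16 RPKM. At term *KIF2A* stood at 6.76 RPKM in WT and 6.53 in CF, and *KIF2C* at 1.61 and 0.139 RPKM. *KIF2A* too was called over the 5 time points, in WT proximal (adjusted p = 0.00692), WT distal (adjusted p = 0.0211) and CF distal lung (adjusted p = 0.0469). When 1 of the 10 libraries of a course was left out, these calls were lost in 1, 3 and 8 cases. *KIF20B*, which acts late in cytokinesis, had a shallower course than *KIF20A*, from 10.4 RPKM at 65 days to 4.21 at term in WT and from 7.08 to 3.47 in CF, and was not called between genotypes at term (-0.29 proximal, -0.24 distal). Over the 5 time points *KIF20B* was called in the same 3 courses (adjusted p = 0.000396, 0.00592 and 0.00290). *KIF18A* went from 1.74 RPKM at 65 days to 0.474 at term in WT and from 1.53 to 0.189 in CF. *KIF18B* started higher and went from 6.85 to 1.71 RPKM in WT and from 9.50 to 0.204 in CF, so that both stood near the same level in CF at term. *KIFC3*, a minus-end directed motor of epithelial junctions, went from 5.82 RPKM at 65 days to 16.6 at term in WT and from 8.58 to 20.5 in CF, and was called over the 5 time points in WT proximal (adjusted p = 0.0366), WT distal (adjusted p = 0.00192) and CF distal lung (adjusted p = 0.00279), the first of which was lost in 5 of 10 such cases.

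**Figure D4:**
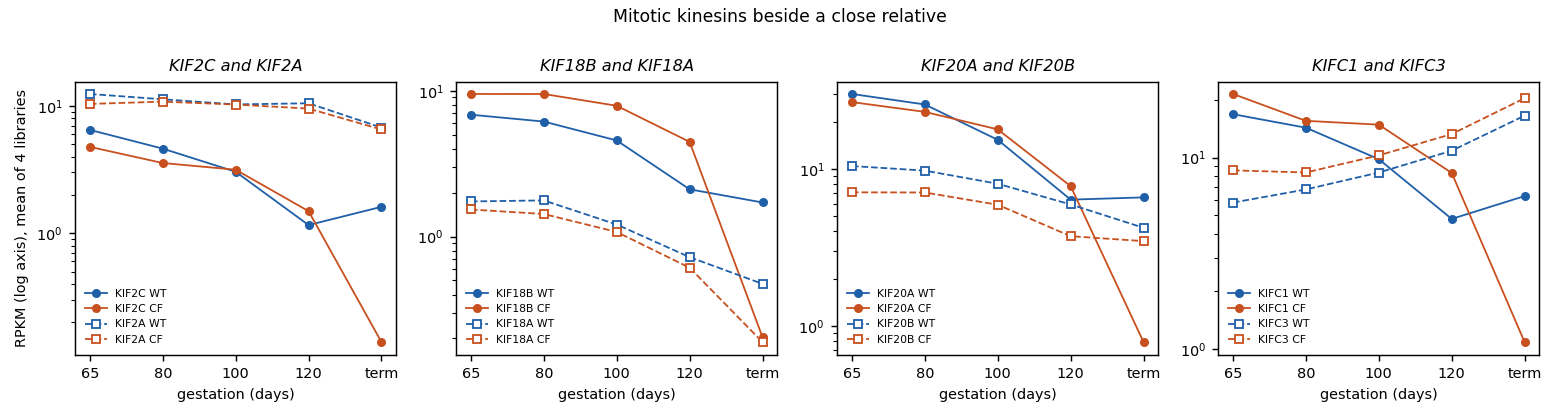
Levels of 4 mitotic kinesins (filled circles, solid lines) and a close relative of each (open squares, dashed lines) in RPKM (log axis) against gestation in days, as the mean of the 4 libraries of a genotype and day, blue for WT and orange for CF. At term *KIF2A* and *KIF20B* stand at 6.53 and 3.47 RPKM in CF lung where *KIF2C* and *KIF20A* stand at 0.139 and 0.789, *KIF18A* is low beside *KIF18B* at 65 days, and *KIFC3* ends higher and *KIFC1* lower than at 65 days.

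The cargo kinesins come next, of which *KIF1C* led the whole family per kilobase at term in both genotypes (131 RPKM in WT, 45.6 in CF). *KIF5B*, the heavy chain of conventional kinesin in most tissues, stayed between 19.3 and 29.2 RPKM over genotypes and days, and was called in no comparison. Its neuronal relatives were low, *KIF5A* at 0.0645 to 0.579 RPKM and *KIF5C* at 0.0673 to 0.655 RPKM. *KIF13A* and *KIF13B*, carriers of endosomal cargo, lay at 3.22 to 4.99 and 0.705 to 2.01 RPKM, and *KIF1B* and *KIF1A* at 4.52 to 8.31 and 0.290 to 2.96 RPKM. *KIF1C* was called in both WT courses. In WT proximal lung it rose by 1.59 on the log2 scale from 120 days to term (SE 0.20, adjusted p = 0.000995), from 187 and 135 to 546 and 424 CPM. In WT distal lung it rose by the same amount (SE 0.16, adjusted p = 0.000567), from 199.5 and 161 to 624 and 474 CPM. In CF lung the term values of 224 and 135 CPM (proximal) and 276 and 86.9 CPM (distal) overlapped those at 120 days, which were 225 and 142 CPM and 225 and 203 CPM. The difference between the genotypes in this change was called in distal lung (-1.82, SE 0.50, adjusted p = 0.0349) and missed the threshold in proximal lung.

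The kinesins of the cilium were examined in the same way. *KIF3A* and *KIF3B*, which form the kinesin-2 motor of intraflagellar transport, lay at 5.13 to 8.92 and 1.19 to 4.48 RPKM, and *KIF3A* fell by 0.80 in WT distal lung from 120 days to term (SE 0.19, adjusted p = 0.0168), while *KIF3B* fell by 1.93 in CF distal lung over the same interval (SE 0.49, adjusted p = 0.0254). *KIF3C*, which can pair with KIF3A as well, fell by 2.88 there (SE 0.62, adjusted p = 0.0152). The *KIF3A* call was lost without either library at 120 days. The *KIF3B* call was lost without replicate 1 at 120 days (-1.25) or either library at term, and the *KIF3C* call without replicate 1 at 120 days (-1.89) or replicate 2 at term (-2.41). *KIF7*, a regulator of Hedgehog signalling at the cilium tip, was called over the 5 time points in WT proximal (adjusted p = 0.0190) and CF distal lung (adjusted p = 0.00305), and fell from 120 days to term by 0.63 in WT distal (adjusted p = 0.0442) and 1.44 in CF distal lung (adjusted p = 0.00652). The *KIF7* call in WT proximal lung was lost without either term library, and that of its fall in WT distal lung without either library at 120 days or replicate 2 at term. The motile cilium kinesins *KIF6*, *KIF9*, *KIF19* and *KIF27* were called in none of the comparisons of consecutive time points or genotype, and *KIF19* alone over the 5 time points, in CF distal lung (adjusted p = 0.0466), a call lost without any 1 of 9 of the 10 libraries. Replicates of *KIF19* and *KIF6* were far apart in WT distal lung at 65 days, at 4.10 and 0.0548 CPM and at 6.51 and 1.26 CPM. The summed level of 16 motile cilium markers was 485 and 65.2 CPM in the same libraries. Over the WT libraries before term *KIF27* lay within 30.9 to 49.5 CPM and *KIF9* within 2.69 to 6.92 CPM. In all, 11 members were called in no comparison, namely *KIF2B*, *KIF5B*, *KIF6*, *KIF9*, *KIF13A*, *KIF13B*, *KIF16B*, *KIF17*, *KIF25*, *KIF27* and *KIF28P*. *KIF25* and *KIF28P* stayed at 0.177 RPKM or less, and *KIF2B* at 0.217 or less. Exons of *KIF2A*, *KIF9*, *KIF18A* and *KIF28P* overlap another gene, and their reads there cannot be told apart from it.

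**Figure D5:**
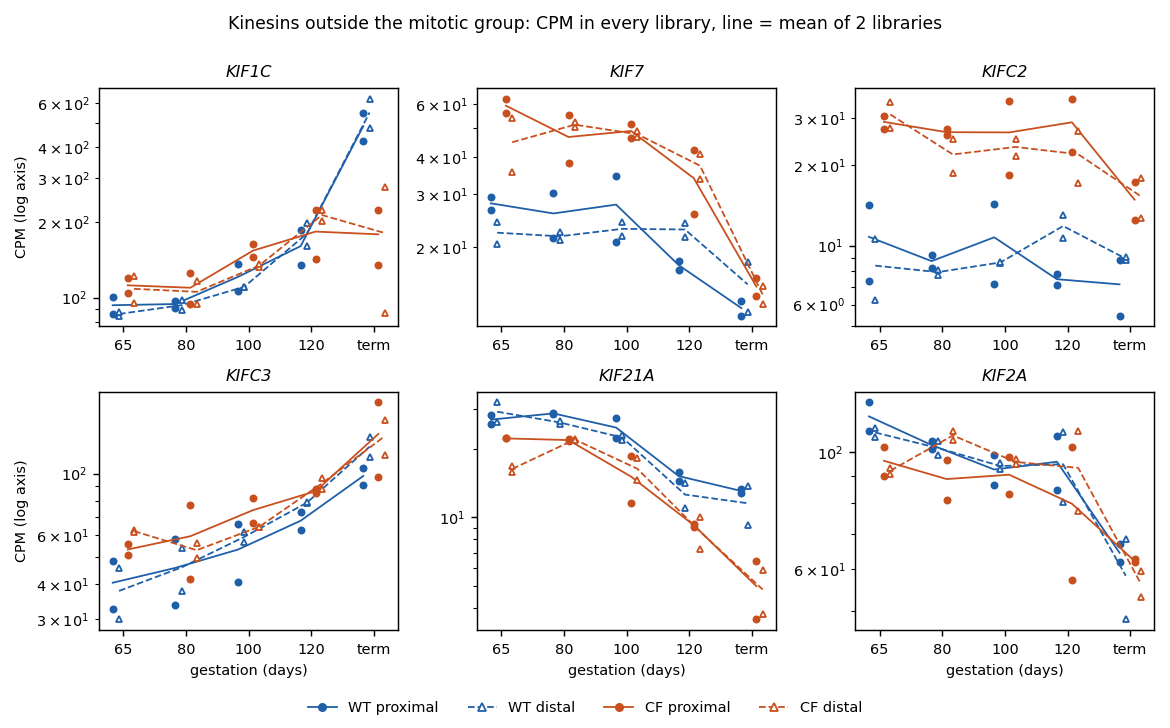
Levels of 6 kinesins outside the mitotic group in CPM (log axis) against gestation in days, drawn as for the mitotic kinesins with 1 point per library. *KIF1C* stands at 424 to 624 CPM in the 4 WT term libraries, *KIFC2* is higher in every CF than in every WT library before term, and between 65 days and term *KIFC3* goes up and *KIF21A* down in both genotypes.

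Before term 1 kinesin call in proximal and 7 in distal lung were made between the genotypes, all of them higher in CF, the genotype with the deeper libraries. In distal lung 3, 2 and 2 of 40 kinesins were called at 65, 80 and 100 days, near the 5.23%, 5.92% and 5.30% of all genes. *KIF7* was among them on each day (1.00, 1.23 and 1.03, adjusted p = 0.0139, 0.00476 and 0.0134). Its call was lost without either WT replicate or CF replicate 1 at 65 days (log2 fold change 0.67 without the last), without either WT replicate or CF replicate 2 at 80 days, and without any 1 library at 100 days. Its level in the 16 libraries of each genotype before term was 16.8 to 34.6 CPM in WT and 25.7 to 62.7 CPM in CF. *KIFC2*, a minus-end directed motor known from neurons, was called on the same 3 days (1.88, 1.46 and 1.42, adjusted p = 0.00285, 0.0114 and 0.0134) and in proximal lung at 120 days (1.96, SE 0.43, adjusted p = 0.0445, 1.35% of all genes). In distal lung the call was kept at 65 days when any 1 library was left out, and was lost without either WT replicate or CF replicate 2 at 80 days and without any 1 library at 100 days. Before term it lay at 6.22 to 14.3 CPM in WT and 17.2 to 35.6 CPM in CF without overlap (2.14% of all genes were higher in this way), and at term at 5.46 to 9.06 and 12.5 to 18.0 CPM, where depth was alike and the log2 fold changes of 1.06 and 0.81 missed the threshold. *KIF26A*, a kinesin without motor activity, was called in distal lung at 65 days (2.25, SE 0.56, adjusted p = 0.0321), at 23.0 and 8.78 CPM in CF against 2.83 and 3.78 CPM in WT. That call was lost without either WT replicate or CF replicate 1, and the log2 fold change was 1.41 without the last. At 120 days in distal lung, and at 65, 80 and 100 days in proximal lung, 0 kinesins were called by edgeR, where 4.38%, 0.167%, 0.0885% and 0.383% of all genes were, and 7, 8, 5 and 7 kinesins had an unadjusted p under 0.05. Over the 40 kinesins and 4 days before term DESeq2 made 9 calls in proximal and 15 in distal lung, where it called 2.89% to 8.26% and 10.6% to 13.2% of all genes on a day. With every library thinned to the depth of the shallowest, the calls before term were 1 in proximal and 8 in distal lung, beside 1 and 7 without thinning, and 0.125% to 1.26% and 4.95% to 6.93% of all genes were called on a day. The proximal call became 0 without any 1 of 3 of the 4 libraries at 120 days, and 14 calls arose without CF replicate 1, which leaves the library that stood apart as the only CF one and where 30.2% of all genes were called.

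Proximal and distal lung were then set side by side. No kinesin was called between them in either genotype, at any time point or as the mean of the 5 time points (0 of 40 in 12 comparisons by edgeR, 0 by DESeq2 in each genotype). Of all genes, 0% were called in WT at each time point, and 0.00481% in WT and 0.00963% in CF as the mean of the 5 time points. At an unadjusted p under 0.05 there were 0 kinesins in WT at each time point and 0 to 2 in CF. Over the 5 time points, the mean log2 fold changes of proximal against distal for the 8 mitotic kinesins were -0.09 to 0.01 in WT and -0.25 to -0.06 in CF. With the animal as a block, 0 members were called as well.

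Lastly, the course of the mitotic kinesins was compared with that of other genes. Over the 40 libraries, the genes outside the family whose centred log2 CPM lay nearest to the mean of the 8 were *CCNB1*, *TTK*, *CLSPN*, *E2F8*, *CDCA8*, *CENPE*, *ARHGAP11A*, *CENPA*, *CDCA2* and *CENPN*, at root mean square differences of 0.168 to 0.256 among 14873 genes with a median of 1.47. *CCNB1* encodes cyclin B1, *TTK* a kinase of the spindle checkpoint, and *CENPE* a kinesin-like motor of the kinetochore that does not carry a KIF symbol. Of the 8 themselves, *KIF4A* was nearest (0.164) and *KIF18B* farthest (0.411). Each of the 8 is part of that mean, which can draw its own difference down, so genes outside the 8 are not strictly comparable. *KIF15* (0.268) and *KIF22* (0.319) lay among the 8, and *KIF18A* (0.536) and *KIF21A* (0.819) came after them. A list of 33 genes of spindle, kinetochore and cytokinesis partners had 29 members called lower in CF at term in proximal and 28 in distal lung (median -2.24 and -2.16), beside 3.49% and 7.57% of all genes. From 100 to 120 days, 26 of the 33 were called lower in WT proximal and 11 in WT distal lung, beside 1.29% and 1.16% of all genes. There too both WT replicates at 100 days carry 1 animal label. At term, of 21 transport adaptors 1 was called lower in proximal lung, and 3 were higher and 3 lower in distal lung. Of 16 dynein and dynactin genes 1 and 1 were lower, of 19 intraflagellar transport genes 1 and 2 higher, and of 16 motile cilium genes 0 and 0, with medians from -0.49 to 0.06. Of all genes 6.09% were called in proximal and 15.2% in distal lung, so that 1 call among 16 to 21 genes is near the proximal share.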

How the data were processed

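Gene counts of 40 lung libraries were analysed. Per the labels and the study's methods, the authors prepared libraries with oligo dT, sequenced paired ends on an Illumina NovaSeq, aligned them with STAR to the Oar_v4.0 sheep assembly (version 2.6 in the submitters' processing notes, another in the methods) and deposited raw counts per gene from featureCounts 1.6.3, whose strand setting is not stated. A second table repeats 20 of the columns with identical values and was not used. Total counts ran from 24670355 to 126749480 a library, and low counts limit precision in the shallower WT libraries before term.

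Members were found by identifier. The members, the gene lists and the tests were chosen with earlier results of these data known. Genes were filtered with filterByExpr, scaled by TMM and tested by the quasi-likelihood test of edgeR 4.0.16 in R 4.3.3 and p-values were adjusted over every gene tested by the Benjamini-Hochberg method. A call is an adjusted p of 0.05 or less. Each time course was fitted on its 10 libraries, genotypes on the 20 of a region and regions on all 40. Named genes were the 8 mitotic kinesins in full, other members where called in a comparison of genotype, region or their difference or over time in 2 or more of the 4 courses, and close relatives, and the remaining members named were chosen after their values were seen. Likeness is the root mean square difference of centred log2 CPM over genes whose average log2 CPM was 0 or above. CPM and RPKM were computed here from the counts and the deposited gene lengths. Replicates were compared as the log2 ratio of CPM + 0.1 over genes at a mean of 1 CPM or more. Scripts were tested on simulated data. Alternatives were the study's limits, RLE scaling, no filter, DESeq2 1.42.0, a fit of all libraries, thinning to equal depth, a replicate block and leaving out each library. Replicates are separate animals as labelled, save at 100 days in WT, and p-values measure the spread between these samples, which may in part be technical. Sequences of the kinesins were not analysed here.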

Additional observations from a re-analysis of the deposited data

Results flagged for a closer look

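The change from 120 days to term differed between CF and WT (CF change minus WT change, log2 scale, a test of the difference itself in 20 libraries of a region) for 10 kinesins in proximal lung (1.78% of all genes), with adjusted p from 0.000730 to 0.0257. The differences were -4.31 for *KIF2C*, -4.12 for *KIF18B*, -3.91 for *KIFC1*, -3.59 for *KIF14*, -3.51 for *KIF4A*, -3.17 for *KIF23*, -3.14 for *KIF20A* and -2.95 for *KIF11* among the mitotic kinesins, and -3.44 for *KIF22* and -2.56 for *KIF15* among the others. In distal lung 11 differed (9.31% of all genes), with adjusted p from 0.000334 to 0.0349. Among the mitotic kinesins the values were -4.15 for *KIF18B*, -3.51 for *KIF20A*, -3.49 for *KIF2C*, -2.98 for *KIF4A*, -2.81 for *KIF23*, -2.79 for *KIFC1*, -2.75 for *KIF11* and -2.25 for *KIF14*. Among the others they were -2.46 for *KIF22*, -2.38 for *KIF15* and -1.82 for *KIF1C*, a cargo motor whose WT level went up while its CF level did not. All of these differences were negative.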

How the results depend on the processing

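The 8 mitotic kinesins stayed called lower in CF at term in both regions when any term library was left out. At the study's limits, the kinesins called over 5 time points were 12, 3, 0 and 10 (WT proximal, WT distal, CF proximal, CF distal), the mitotic calls at 120 against 100 days 0 in WT proximal, WT distal and CF distal lung (0.0770%, 0.0274% and 0.0103% of all genes), those at term against 120 days 0 in WT and CF proximal lung (2.14% and 0%), the calls of CF against WT at term 7 and 10 (proximal, distal, beside 0.339% and 1.25% of all genes), the mitotic calls of the difference in change 3 and 5 (0.0442% and 0.189% of all genes), and all kinesin calls before term 0 and 0 (0% and 0.0797% to 0.164% on a day). With DESeq2 the mitotic calls at 120 against 100 days were 6, 1 and 7 in WT distal, CF proximal and CF distal lung (8.09%, 2.42% and 5.48% of all genes), and the calls before term 9 and 15. In 1 fit of all 40 libraries, CF proximal lung had 17 calls over 5 time points (28.1% of all genes), the mitotic calls at 120 against 100 days were 3, 1 and 3 in WT proximal, CF proximal and CF distal lung (1.06%, 1.87% and 1.84%) and 0 at term in WT proximal lung (11.1%), and 10 calls arose before term in proximal lung (1.99% to 7.81% on a day). Without a filter, the mitotic calls at 120 against 100 days were 2 in WT distal and 2 in CF distal lung (2.34% and 1.09% of all genes), and 1 at term in WT proximal lung (19.6%), as with RLE scaling (24.6%).

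Without 1 library, the calls over 5 time points ran from 16 to 21, 16 to 23, 4 to 20 and 15 to 25 in the same order. Mitotic calls at 120 against 100 days ran from 0 to 1, 0 to 0, 0 to 4 and 0 to 1, and at term from 0 to 4, 0 to 4, 0 to 8 and 8 to 8. CF against WT at term gave 10 to 13 and 11 to 17 calls, the difference in change 6 to 8 and 8 to 8 mitotic calls, and the days before term 0 to 14 and 5 to 8. *KIF20A* at term against 120 days turned to -0.63 in WT proximal and -0.69 in WT distal lung without replicate 1 at term, and to 0.50 and 0.47 without replicate 2. Beyond fewer samples the causes were not tested.

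The replicate block took the mitotic calls at term in CF proximal lung to 0 and the calls over all genes from 70 to 0, with log2 fold changes from -4.49 (*KIF18B*) to -2.71 (*KIF23*) for the 8. Regions of 1 replicate share an animal, and with the animal as block 0 kinesins were called. Elsewhere replicates share only a number (correlations of their deviations from -0.749 to 0.833 between time points), so this pairing is not one of the design.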
